A study of Mus musculus with 58 samples.

Results

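The 84 genes described here are named as nuclear-encoded subunits of the mitochondrial respiratory chain and of ATP synthase, and were read in bulk RNA from mouse liver. They were taken by symbol from the 24537 rows of the gene count table, of which 20712 are protein-coding: Nduf genes whose name goes on with a, b, c, s or v and a digit, Uqcr genes, Cox4 to Cox8 genes, Atp5 genes and Sdha to Sdhd. By complex they number 35 for complex I, 4 for complex II, 8 for complex III, 20 for complex IV and 17 for complex V. Ndufa4 and Ndufa4l2 carry a complex I name but were counted with complex IV, where Ndufa4 is now placed. A subunit with another kind of name, such as cytochrome c1 (Cyc1), is not among them, and the subunits encoded by mitochondrial DNA were not analysed here.

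The respiratory chain passes electrons from NADH (complex I, NADH dehydrogenase) and from succinate (complex II, succinate dehydrogenase, which is also an enzyme of the citric acid cycle) to ubiquinone. Complex III (cytochrome bc1) hands them to cytochrome c, and complex IV (cytochrome c oxidase) passes them to oxygen. Protons pumped by complexes I, III and IV drive complex V, the ATP synthase. Hepatocytes are rich in mitochondria, which serve fatty acid oxidation, the urea cycle and gluconeogenesis. Most subunits are made from nuclear genes, and several of those of complex IV exist as a widespread or liver form and a form of heart and skeletal muscle, testis or lung.

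The 58 libraries are polyA RNA of whole liver from male mice, with the strain given as C57BL6/J. Every mouse received an AAV8 vector with the TBG promoter, which is active in hepatocytes, so that no group lacks a vector. The vector carried either Myc, a growth-promoting transcription factor, or mApple, a red fluorescent protein. By gavage the mice received vehicle or ruxolitinib, which blocks the Janus kinases JAK1 and JAK2, 2 times daily for 30 days with a 2-day break at weekends, the drug at 45 mg/kg. The old groups were mApple with vehicle (8 libraries), mApple with ruxolitinib (9), Myc with vehicle (11) and Myc with ruxolitinib (14). The young groups, aged 4 months, were mApple with vehicle (6) and Myc with ruxolitinib (10), so that among young mice vector and drug changed together. Sequencing ran in a first batch of 18 libraries, all of old mice aged 25 months, and a second batch of 40, whose old mice were aged 24 months. The first batch held 4 libraries each of the old mApple vehicle, mApple ruxolitinib and Myc ruxolitinib groups and 6 of Myc vehicle. The second held 4, 5, 10 and 5 of these, in the same order, and all the young livers. The labels do not say that every library is a different mouse, so p-values measure the spread between these samples.

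Libraries held 10676098 to 40982340.5 exon counts, and the genes described here took 0.552% to 1.22% of them. Myc itself averaged 58.7 CPM (TMM-scaled counts-per-million) in old Myc vehicle livers and 43.9 in old Myc ruxolitinib livers, against 18.8 and 8.71 in the mApple groups with the same drug. 1 library labelled Myc with vehicle, number 870, had 6.85 CPM of Myc. Libraries 860 and 861 (old Myc ruxolitinib) and 864 and 865 (old mApple ruxolitinib), all of the first batch, had the lowest mean levels of the genes described here. The 12 hepatocyte markers summed to 90497 (860), 54761 (861), 59462 (864) and 116344 CPM (865), and in the other 54 libraries to between 95011 and 230784 CPM, a range that includes library 865. The 6 leukocyte markers summed to 1563, 1060.5, 396 and 196 CPM in these libraries, to 405 CPM in library 868 (old Myc ruxolitinib) and 264 CPM in library 857 (old mApple ruxolitinib), both of the first batch, to at most 183 CPM in the rest, and to medians of 44.5 to 120 CPM in the groups. The 10 Kupffer cell markers summed to 5219 and 3269 CPM in libraries 860 and 861 and to at most 1224 CPM elsewhere. Bile duct cell markers summed to 887 CPM in library 864 and 449 CPM in 865, against at most 320 CPM elsewhere, and neutrophil markers to 467 CPM in 864, against at most 94.0 CPM elsewhere. Stellate cell and fibroblast markers were highest in libraries 865 (1174 CPM) and 861 (1091 CPM), with at most 675 CPM elsewhere. Muscle markers summed to at most 0.726 CPM in any library. In whole liver, fewer cells of a type and less RNA per cell cannot be told apart.

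Promoter stretches of 6 genes are shown first, because members of each complex are compared across vectors that do or do not supply Myc, a factor known to bind the E-box CACGTG. They are the last 100 bases before the RefSeq start of 5 genes that were higher in old Myc vehicle than in old mApple vehicle livers and of Ndufa11, which was lower with Myc in ruxolitinib-treated livers. Letters follow RefSeq GRCm38.p6, 5′ to 3′ on the gene's strand, and capitals mark a match to a searched motif.
Uqcr11: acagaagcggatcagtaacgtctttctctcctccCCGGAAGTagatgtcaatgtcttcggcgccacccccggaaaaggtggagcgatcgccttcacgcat
Cox7c: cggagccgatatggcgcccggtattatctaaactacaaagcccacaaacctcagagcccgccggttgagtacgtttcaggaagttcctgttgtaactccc
Atp5g1: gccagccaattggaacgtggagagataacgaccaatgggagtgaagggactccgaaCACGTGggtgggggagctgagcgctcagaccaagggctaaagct
Atp5g2: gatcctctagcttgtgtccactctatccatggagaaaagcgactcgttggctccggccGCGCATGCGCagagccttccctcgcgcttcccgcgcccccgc
Atp5g3: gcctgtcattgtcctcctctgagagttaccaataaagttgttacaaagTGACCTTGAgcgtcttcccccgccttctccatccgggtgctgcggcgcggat
Ndufa11: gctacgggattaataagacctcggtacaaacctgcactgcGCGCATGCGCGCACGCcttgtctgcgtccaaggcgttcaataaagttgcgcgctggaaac
The stretches lie at chr10:80406822-80406921 on the minus strand (Uqcr11), chr13:86046796-86046895 on the minus strand (Cox7c), chr11:96075632-96075731 on the minus strand (Atp5g1), chr15:102671048-102671147 on the minus strand (Atp5g2), chr2:73911327-73911426 on the minus strand (Atp5g3) and chr17:56717662-56717761 on the plus strand (Ndufa11). The capitals are CCGGAAGT, the ETS-type site bound by GABP, in Uqcr11, CACGTG in Atp5g1, GCGCANGC, an NRF1-type site, in Atp5g2 and Ndufa11, and TCAAGGTCA, the site of estrogen-related receptors, on the other strand in Atp5g3. Cox7c has none of the searched motifs in this stretch. Atp5c1, Atp5o, Ndufb2 and Uqcrc1 were also higher in that comparison and have none in the same stretch, and theirs are not shown. The genes shown are therefore no measure of how often such genes hold a motif.

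Both strands of 300-base windows, from 250 bases before to 50 bases after the start, were searched for 5 motifs. A window was in the RefSeq table for 69 of the 84 genes, and the share of all 27025 genes with a window stands beside each count. GCGCANGC was in 23 of the 69 windows (33.3%, against 10.1% of all). AAGATGGC, the YY1-type site, was in 10 (14.5%, against 2.88%), and 9 of its 10 matches began between 22 and 38 bases after the start. CACGTG was in 7 (10.1%, against 7.24%), those of Ndufa7, Ndufv1, Atp5f1, Atp5g1, Atp5g3, Atp5l and Atp5sl. CCGGAAGT was in 5 (7.25%, against 4.0%) and TCAAGGTCA in 2 (2.90%, against 0.407%). No match of one motif overlapped a match of another. A match is a run of letters and no measure of binding, and no binding was measured in these samples.

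Of the 84 genes, 78 had counts in every library. Levels were compared between genes as CPM per kilobase of exon (CPM per kb), averaged over the 58 libraries. Atp5b, the catalytic beta subunit of ATP synthase, was highest at 578 CPM per kb, followed by Ndufa4 (429), the alpha subunit gene Atp5a1 (366), Cox4i1 (336), Cox6b1 (295) and Atp5g3 (275). Among the genes with counts in every library the median was 66.6 CPM per kb for complex I, 148 for complex II, 129 for complex III, 159 for complex IV and 159 for complex V. Complex I thus had the most members and the lowest median per kb, from Ndufa11 at 13.8 to Ndufa6 at 199. The 4 subunits of complex II lay close together, from Sdhb (124), which carries iron-sulfur clusters, through the membrane anchors Sdhc (144) and Sdhd (153) to the flavoprotein Sdha (166). The 8 complex III genes ran from Uqcrq (99.7) to Uqcr11 (224). In complex V, Atp5s and Atp5sl, which carry an Atp5 name but are not parts of the ATP synthase itself, stood lowest at 3.21 and 11.1 CPM per kb. Both are counted among the 17 complex V genes in all values given for that complex. On average 39.3% of the counts of all 84 genes fell on complex V, 23.4% on complex I, 15.6% on complex IV, 11.4% on complex III and 10.3% on complex II.

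**Figure D1:**
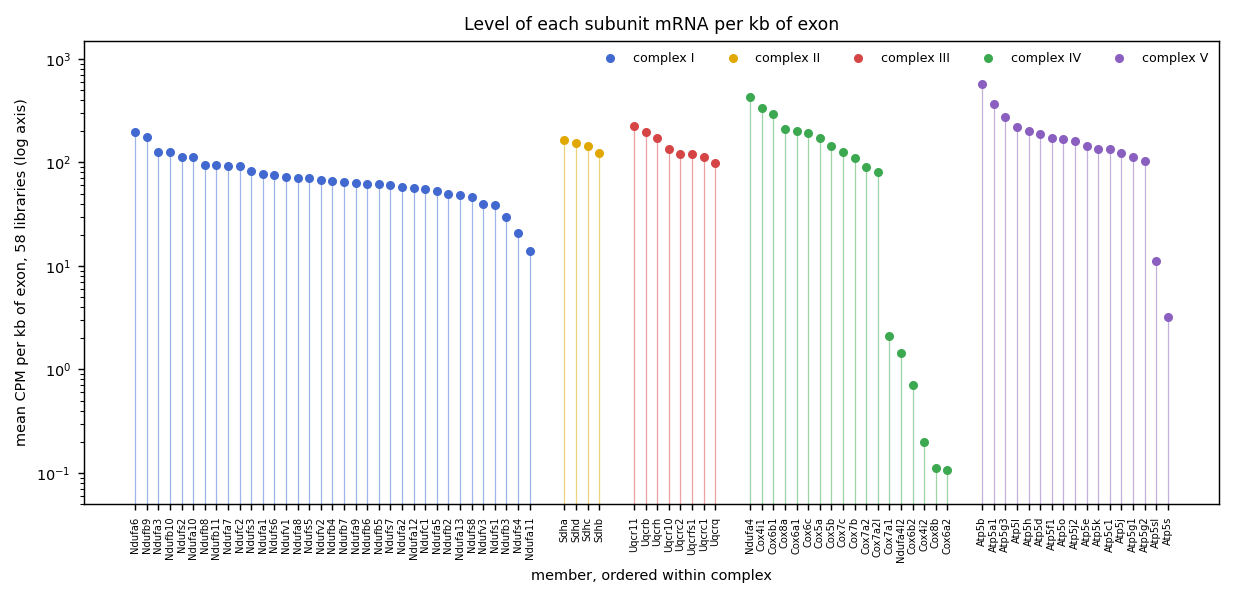
Mean level of each gene over the 58 libraries in CPM per kb of exon on a log axis, grouped by complex, with a point per gene. The genes with counts in every library spread around medians of 66.6 (complex I) to 159 (complexes IV and V), and the low points of complex IV are the muscle, testis and lung forms and Ndufa4l2.

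The isoform genes of complex IV separated into an expressed and a barely detected form. Cox4i1, the common form of subunit 4, was at 336 CPM per kb and Cox4i2, a lung form, at 0.198, with no count in 26 of the 58 libraries. Cox6a1 was at 201 CPM per kb and its heart and muscle counterpart Cox6a2 at 0.107, with no count in 27 libraries. Cox8a was at 211 and the muscle form Cox8b at 0.113, with no count in 32 libraries. Cox6b1 was at 295 and Cox6b2, known from testis, at 0.713, with no count in 1 library. Cox7a2 was at 91.1, the heart and muscle form Cox7a1 at 2.12 CPM per kb, with counts in every library. Cox7b2 and Cox8c had no count in any library, which over the 58 libraries together allows at most 0.00311 CPM each (3 counts). Ndufa4l2, a hypoxia-inducible relative of Ndufa4, was at 1.45 CPM per kb, against 429 for Ndufa4. The 3 genes for subunit c of ATP synthase, which encode the same mature protein, were at 275 (Atp5g3), 113 (Atp5g1) and 103 (Atp5g2) CPM per kb.

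Across the 58 libraries the 75 members with a mean of at least 10 CPM had a median coefficient of variation of 22.6%, against 21.4% for the 8239 genes of the table at that level. The steadiest complex I gene was Ndufv3, at 14.9%, and the most variable Ndufb2, at 43.8%. The members' common level in a library was taken as the mean log2 CPM of the 78 genes with counts in every library. It was 6.26 ± 0.17 (SD, n = 6) in young mApple vehicle livers and 6.37 ± 0.11 (n = 10) in young Myc ruxolitinib livers. In old livers it depended on the batch. In the first batch it was 5.87 ± 0.03 (n = 4) for mApple vehicle, 5.66 ± 0.26 (n = 4) for mApple ruxolitinib, 6.14 ± 0.32 (n = 6) for Myc vehicle and 5.46 ± 0.52 (n = 4) for Myc ruxolitinib. In the second it was 6.10 ± 0.16 (n = 4), 6.40 ± 0.11 (n = 5), 6.19 ± 0.06 (n = 5) and 6.32 ± 0.12 (n = 10), in the same order. The lowest levels were those of libraries 861 (4.91), 860 (5.15), 864 (5.46) and 865 (5.52), all treated with ruxolitinib in the first batch, and the highest was that of library 871 (6.58), Myc with vehicle in the same batch.

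**Figure D2:**
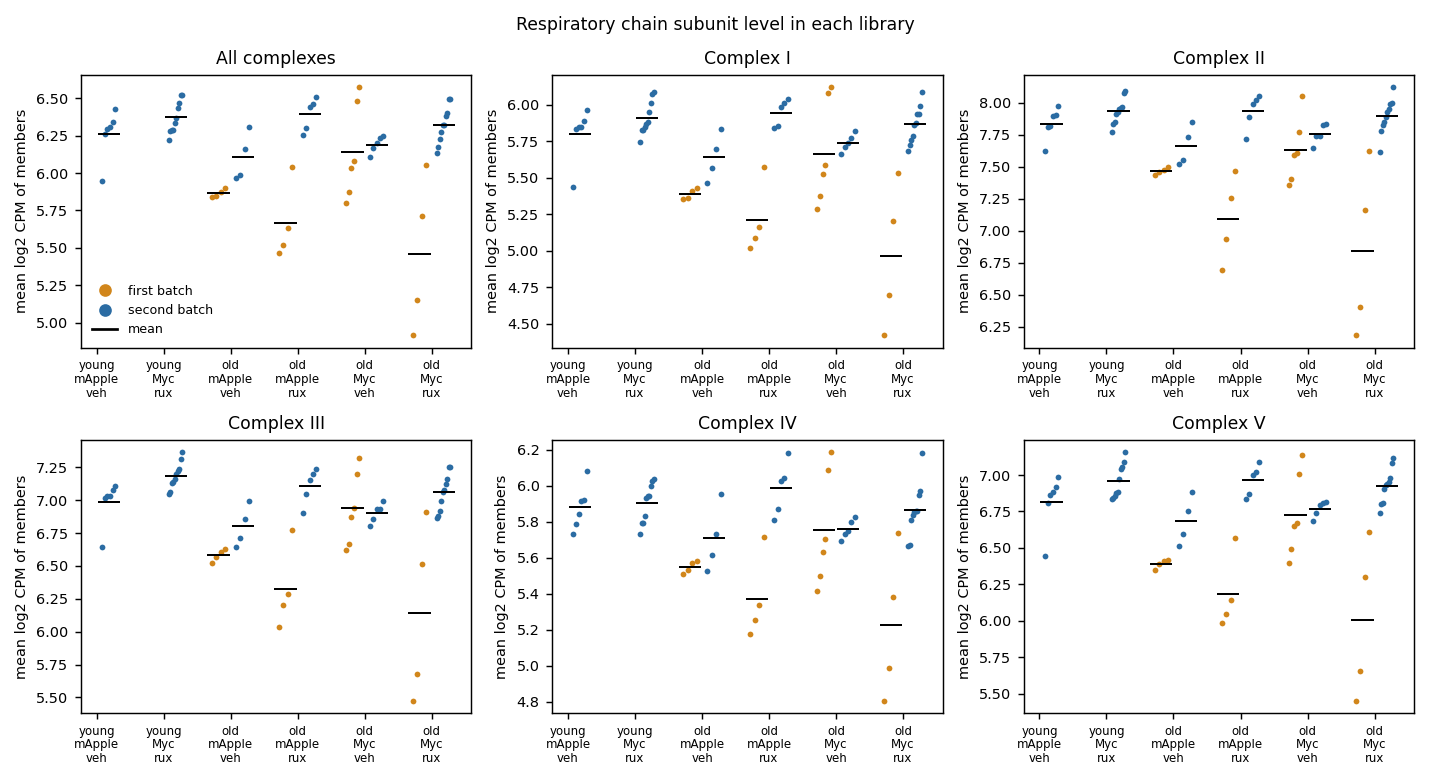
Mean log2 CPM of the members of each complex in every library, by group, with the sequencing batch marked and the group mean as a bar. The 4 low libraries of the first batch, 860, 861, 864 and 865, are low in each of the complexes, and library 1134 (5.95 over all members) is the lowest of the second batch.

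Old livers of the second batch held more RNA of most members than those of the first, in a fit of all 42 old libraries with a term for each of the 4 groups. That comparison was added after the data were seen, and batch cannot be told apart there from the age of 24 against 25 months. Of 79 members tested, 57 were higher in the second batch (72.2%) and 4 lower, against 31.9% of all genes higher and 35.4% lower (edgeR quasi-likelihood, adjusted p). The median log2 fold change was 0.41 over the members and -0.02 over all genes. Atp5e, the epsilon subunit of ATP synthase, had 19.4, 19.6, 23.4 and 23.7 CPM in first-batch mApple vehicle livers and 56.0, 64.3, 65.6 and 79.0 in second-batch ones, so that the batches did not overlap. Its log2 fold change between batches was 1.65 ± 0.19 (adjusted p = 2.18e-09). Ndufb2, an accessory subunit of complex I, had 7.01, 7.62, 7.82 and 8.93 CPM in the first batch and 18.9, 19.0, 23.3 and 27.3 in the second in the same group, and its log2 fold change was 1.51 ± 0.15 (adjusted p = 3.60e-11). For Uqcrfs1, the Rieske iron-sulfur protein of complex III, the values were 86.9, 87.6, 89.6 and 90.4 CPM against 141, 149, 157 and 191, with a log2 fold change of 1.01 ± 0.13 (adjusted p = 1.47e-08). The 4 lower in the second batch were Ndufa4l2, Cox7a2l, Ndufa12 and Ndufa11. Without libraries 860, 861, 864 and 865, 42 members were higher and 8 lower, beside 3734 of 14080 genes higher and 4549 lower. The median was then 0.19 over the members and -0.05 over all genes. The fits below therefore carry a batch term wherever both batches are present, and values are given by batch. Atp5e, Ndufb2 and Uqcrfs1 were named here as the 3 members of smallest p, after their values were seen.

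Under vehicle, old livers with Myc held more RNA of 11 of 78 members tested than old mApple livers, and of none less (11 libraries against 8, edgeR quasi-likelihood, adjusted p). That is 14.1% of the members higher, beside 10.8% of all genes higher and 8.01% lower. By complex the 11 were 2 of complex I, 0 of complex II, 2 of complex III, 2 of complex IV and 5 of complex V. The median log2 fold change was 0.17 over the members and -0.02 over all genes tested, and 68 of the 78 were above 0.

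Uqcr11, a small subunit of complex III, had 55.7, 57.0, 64.5 and 69.8 CPM in first-batch mApple vehicle livers and 82.4 to 181 (median 114) in those with Myc. In the second batch the values were 70.7, 74.0, 76.9 and 92.0 against 96.5, 98.8, 105, 105 and 108 CPM. Within each batch every library labelled Myc, 870 included, was above every mApple library. The log2 fold change was 0.63 ± 0.12 (adjusted p = 0.00171), 0.90 ± 0.20 in the first batch alone and 0.37 ± 0.09 in the second. Cox7c, a small subunit of complex IV, had 29.4, 32.2, 36.8 and 37.9 CPM in first-batch mApple vehicle livers and 39.2 to 79.7 (median 48.3) with Myc. In the second batch it had 42.6, 47.0, 52.3 and 55.0 against 54.3, 61.9, 64.3, 69.1 and 69.7 CPM. The vectors did not overlap within the first batch, whereas in the second the lowest Myc library was just below the highest mApple one. Its log2 fold change was 0.50 ± 0.11 (adjusted p = 0.00485). Ndufs1, the largest subunit of complex I, which carries iron-sulfur clusters, had 74.9, 78.8, 79.1 and 83.9 CPM against 90.2 to 152 (median 95.6) in the first batch. In the second it had 85.1, 96.7, 98.7 and 109 against 102, 118, 119, 121 and 126, and its log2 fold change was 0.31 ± 0.09 (adjusted p = 0.0169). In the first batch the Ndufs1 values of the vectors did not overlap, and in the second 1 Myc library lay below the highest mApple library.

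In complex IV, Cox4i1 had 142, 159.6, 168 and 191 CPM against 170.1 to 384 (median 228) in the first batch and 154, 203, 227 and 259.5 against 253, 253, 283, 287 and 289 in the second, with overlap in both. Its log2 fold change was 0.43 ± 0.13 (adjusted p = 0.0207). All 3 genes for subunit c of the ATP synthase, whose ring turns with the proton flow, rose: Atp5g2 by 0.30 ± 0.08 (adjusted p = 0.00866), Atp5g3 by 0.33 ± 0.10 (adjusted p = 0.0313) and Atp5g1 by 0.31 ± 0.11 (adjusted p = 0.044) on the log2 scale. Atp5g2 had 55.1, 55.2, 57.3 and 57.9 CPM against 59.9 to 92.3 (median 76.7) in the first batch and 49.2, 59.5, 60.0 and 67.4 against 66.8, 67.5, 67.6, 69.4 and 72.1 in the second, with overlap in the second alone. Of the other complex V genes, Atp5c1, the gamma subunit of the central stalk, rose by 0.23 ± 0.07 (adjusted p = 0.0258) and Atp5o, the OSCP subunit of the outer stalk, by 0.24 ± 0.08 (adjusted p = 0.0404). Atp5b had a log2 difference of 0.21 ± 0.07 (adjusted p = 0.0531) and was not called. Ndufb2 rose by 0.64 ± 0.22 (adjusted p = 0.0429) and Uqcrc1, a core protein of complex III, by 0.22 ± 0.08 (adjusted p = 0.0454). The other representatives were not called: Ndufv1, the NADH-binding subunit, had a log2 difference of 0.31 ± 0.15, Sdha 0.06 ± 0.08, Sdhb 0.17 ± 0.09, Uqcrfs1 0.28 ± 0.14 and Cox5a 0.21 ± 0.10.

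The calls for Uqcr11, Cox7c, Atp5g2, Ndufs1 and Cox4i1 remained whichever of the 19 libraries was left out. Atp5c1 lost its call without library 1136, 862 or 863 and Atp5g3 without 854, 862 or 863. Atp5o and Ndufb2 each lost theirs in 11 of the 19 omissions, Atp5g1 in 14 and Uqcrc1 in 15. The count of members called ran from 6 (without 862 or 863) to 18 (without 859), with 7 without 854, 1136, 1145 or 1147. It was 13 (beside 3085 of 13419 genes) without library 870, which is labelled Myc but was low in Myc RNA. Over the members, library 870 had a mean log2 CPM of 6.49, and library 871 had 6.58. The other first-batch Myc vehicle libraries had 5.80 (859), 5.87 (866), 6.04 (867) and 6.08 (858). Without 870 the members' median was 0.12, the lowest of the 19 omissions, with 61 of 78 above 0. Within the first batch alone the members' median was 0.29 (73 of 77 above 0) and within the second 0.07 (52 of 78 above 0), with Uqcr11 the only member called in either. Scaling by library totals in place of TMM moved the median of all genes from -0.02 to 0.12 in this comparison. Under it 42 members were called higher, beside 2927 of 13547 genes, and the members' median of 0.31 is to be read against that shift.

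The wider machinery was described from lists of genes. In the same comparison 15 of 46 assembly factors of the respiratory complexes rose and none fell, with the largest support for Tmem70, an ATP synthase assembly factor (0.47 ± 0.07 (adjusted p = 1.96e-04)), Bcs1l, which inserts the Rieske protein into complex III (0.53 ± 0.09 (adjusted p = 5.20e-04)), and Acad9, a complex I assembly factor (0.43 ± 0.08 (adjusted p = 0.00126)). Of 17 tested genes of cytochrome c, electron transfer flavoprotein and ubiquinone synthesis 8 rose, among them Coq6 (0.42 ± 0.08 (adjusted p = 0.00163)), Coq2 and Coq3. Of 24 genes of mitochondrial transcription, replication and translation 11 rose, led by Twnk, the mitochondrial DNA helicase (0.51 ± 0.07 (adjusted p = 1.13e-04)), and Lrpprc, which keeps mitochondrial messenger RNAs stable (0.48 ± 0.09 (adjusted p = 9.43e-04)), and of 13 citric acid cycle genes 5 rose, led by Mdh2 (0.29 ± 0.08 (adjusted p = 0.0123)). None of these lists had a member that fell. The list counts stand beside 10.8% of all genes higher and 8.01% lower. Marker lists moved in the same comparison: 6 of 6 proliferation markers were higher, and 6 of 7 endothelial, 3 of 12 hepatocyte and 1 of 7 stellate cell markers lower. Their part in the members' differences was not tested.

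**Figure D3:**
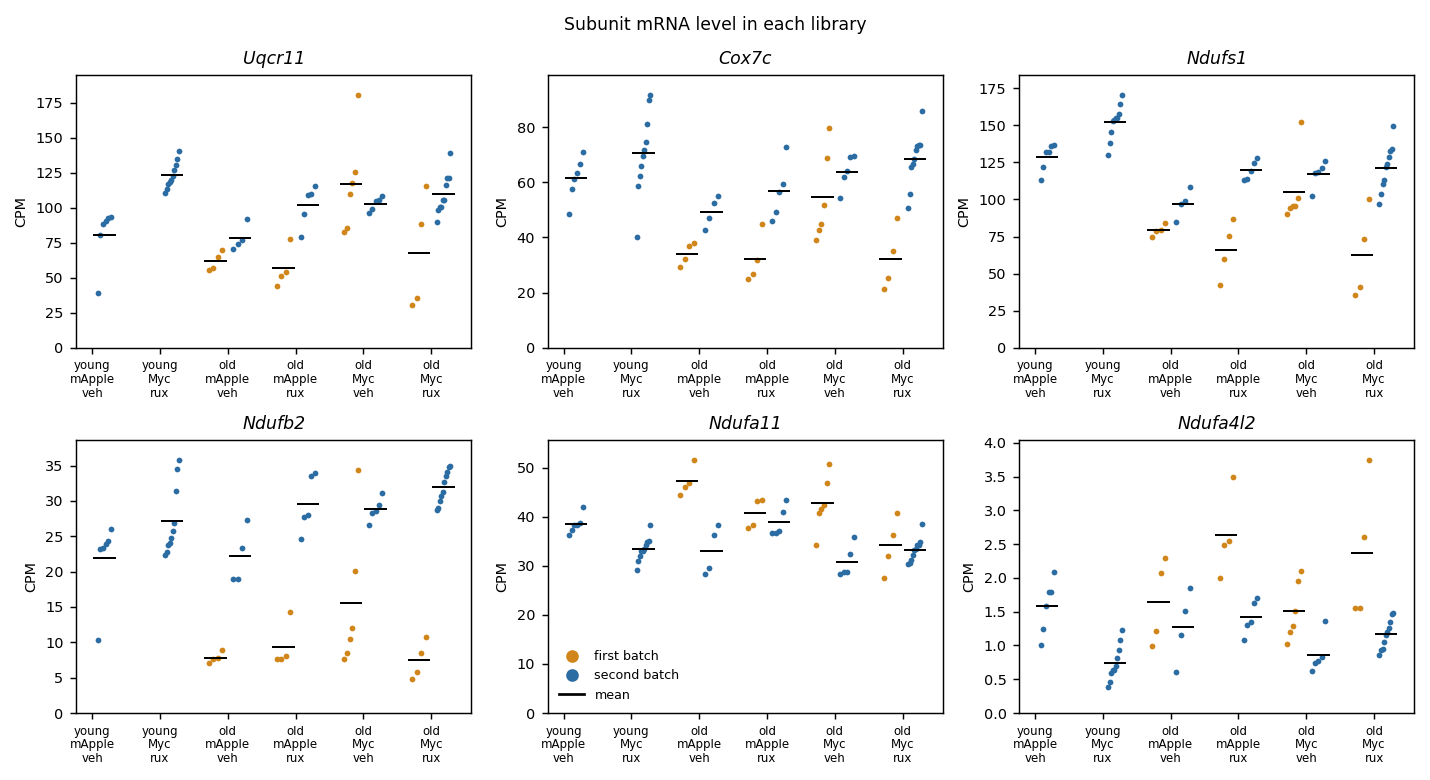
CPM of members that the comparisons turn on, in every library by group, with batch marked and a bar at the group mean. Uqcr11 is higher in every Myc vehicle library than in every mApple vehicle library of its batch, and Ndufa4l2 is lowest in the young Myc ruxolitinib livers.

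Under ruxolitinib, 1 of 79 members tested was higher and 5 were lower in old livers with Myc than with mApple (14 libraries against 9). These are 1.27% and 6.33% of the members, beside 8.4% of all genes higher and 5.96% lower. The median log2 fold change was -0.10 over the members and 0.01 over all genes. The 5 lower were Ndufa11, Ndufb7 and Ndufs5 of complex I, Uqcrq of complex III and Ndufa4 of complex IV, and the 1 higher was the low-level Cox6b2.

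Ndufb7, an accessory subunit of the membrane arm of complex I, had 20.8, 24.3, 25.6 and 35.1 CPM in first-batch mApple ruxolitinib livers and 12.2, 18.6, 21.9 and 23.4 with Myc. In the second batch it had 40.2, 43.0, 45.5, 47.4 and 49.0 CPM against 29.0 to 43.3 (median 34.6). The vectors overlapped in both batches, and the log2 fold change was -0.39 ± 0.10 (adjusted p = 0.0107). Ndufa11, another membrane-arm subunit, had 37.8, 38.3, 43.3 and 43.4 CPM in the first batch with mApple and 27.6, 32.0, 36.3 and 40.8 with Myc, and 36.7, 36.8, 37.1, 41 and 43.5 against 30.4 to 38.5 (median 33.3) in the second. It fell by 0.24 on the log2 scale (SE 0.06, adjusted p = 0.00713). For Uqcrq, a small subunit of complex III, the log2 fold change was -0.38 ± 0.12 (adjusted p = 0.0321), for Ndufs5 -0.29 ± 0.09 (adjusted p = 0.0391) and for Ndufa4 -0.30 ± 0.10 (adjusted p = 0.045). Cox6b2 had 0.150, 0.188, 0.423 and 0.509 CPM with mApple and 0.651, 0.854, 0.871 and 1.23 with Myc in the first batch, where the vectors did not overlap. In the second it had 0.100, 0.117, 0.176, 0.246 and 0.284 against 0.156 to 2.05 (median 0.453) CPM, with overlap. Its log2 fold change was 1.73 ± 0.41 (adjusted p = 0.00669), on 437 counts over all 58 libraries. Of the representatives, Ndufs1 had a log2 difference of -0.03 ± 0.14, Ndufv1 -0.11 ± 0.14, Sdha -0.16 ± 0.14, Sdhb -0.04 ± 0.15, Uqcrc1 0.09 ± 0.13, Uqcrfs1 -0.12 ± 0.14, Cox4i1 0.11 ± 0.12, Cox5a -0.10 ± 0.10 and Atp5b 0.02 ± 0.13, and none of these was called.

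Ndufb7, Ndufa11 and Cox6b2 kept their calls whichever of the 23 libraries was left out. Uqcrq lost its call without 1139, 1142, 856 or 860, Ndufs5 in 12 omissions and Ndufa4 in 15, and the count ran from 3 (without 1142 or 856) to 12 (without 869). Without libraries 860, 861, 864 and 865 it was 6 (2 higher, 4 lower, Uqcrq not called), beside 1247 genes higher and 804 lower of 14006. The members' median was -0.05 without 861, -0.06 without 856 or 860, -0.17 without 869 and -0.03 without the 4 low libraries. The lower calls numbered 2 without 1142, 856 or 860, 3 without 1139, 1143, 1150, 1157, 1158 or 861 and 11 without 869, and the higher calls 2 without 860 or 864. The first batch alone gave 0 calls with a members' median of -0.18, beside 0 of 13566 genes called. There 2 members had an unadjusted p under 0.05, beside 2171 genes. The second batch gave 6 calls, all lower, with a median of -0.05, beside 981 genes higher and 503 lower of 13761. Under library totals, where the median of all genes was 0.13, 3 members were higher and 2 lower, beside 2042 and 305 of 14010 genes. The assembly factors had 3 genes higher and 2 lower of 46, with Bcs1l at 0.45 ± 0.13 (adjusted p = 0.0197). The carriers had 1 higher (Pdss1) and 1 lower (Coq10a) of 17, and mitochondrial gene expression 2 higher (Tfb1m and Pprc1) of 24. The citric acid cycle had 1 higher (Idh3g) and 1 lower (citrate synthase, Cs) of 13. The list counts stand beside 8.4% of all genes higher and 5.96% lower. Proliferation markers were again higher in 6 of 6, while 2 of 12 hepatocyte (median -0.35), 2 of 7 endothelial, 1 of 7 stellate cell and 1 of 6 bile duct cell markers were lower. Median marker sums were 118 CPM (leukocyte, mApple) and 77.8 CPM (Myc), with 1563 and 1060.5 CPM in libraries 860 and 861, and the part of these cells in the members' differences was not tested.

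Ruxolitinib against vehicle gave no call among the members in either vector. In old mApple livers (9 libraries against 8) 0 of 78 members were called by edgeR, beside 0.391% of all genes, and 0 by DESeq2. By edgeR 3 members had an unadjusted p under 0.05, beside 1327 of 13554 genes. The smallest p was that of Ndufb2, with a log2 difference of 0.33 ± 0.13 (adjusted p = 0.391). In old Myc livers (14 against 11) 0 of 79 were called by edgeR, beside 0.545% of all genes, and 0 by DESeq2. By edgeR 1 member had an unadjusted p under 0.05, beside 1925 of 13749 genes. The smallest p there was that of Ndufa4l2, with 0.57 ± 0.18 (adjusted p = 0.202). The median log2 difference of the members was 0.05 in mApple and -0.18 in Myc livers, beside 0.01 for all genes in each. Single libraries moved both medians: in mApple livers it ran from 0.00 (without 1136) to 0.09 (without 864), and in Myc livers it was -0.08 without 861 and -0.10 without 860. In Myc livers all 35 complex I genes, all 4 of complex II and all 8 of complex III had values below 0, as had 11 of 15 tested genes of complex IV and 16 of 17 of complex V. DESeq2 called 0 of 79 members for the difference between the drug's effects in the 2 vectors, over all 42 old libraries. The edgeR test of this difference called 0 members and 0.0% of all genes, with 7 members at an unadjusted p under 0.05, beside 735 of 14046 genes. Its median was -0.25 over the members and 0.00 over all genes.

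The sign of the drug's median differed between batches. In Myc livers of the first batch the members' median log2 difference was -0.64 (75 of 78 below 0) and in the second 0.14 (77 of 79 above 0). In mApple livers it was -0.20 in the first (70 of 77 below 0) and 0.24 in the second (all 78 above 0). None of these 4 fits within a batch called a member, beside 907 of 13476, 9 of 13735, 6 of 13208 and 11 of 13381 genes, in that order. At an unadjusted p under 0.05 were 56, 24, 14 and 41 members, beside 3611, 1313, 2164 and 1269 genes. Sdha shows the pattern in single libraries. With Myc in the first batch it had 335 to 563 (median 410.4) CPM under vehicle and 162, 182, 305 and 421 under ruxolitinib. In the second batch it had 473, 482, 502, 516 and 519 CPM under vehicle and 416 to 569 (median 513) under the drug. The 2 lowest of the first-batch drug values are libraries 861 and 860.

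The interaction of drug and batch was fitted after the data were seen. In Myc livers 52 of 79 members (65.8%) had a drug effect that was higher in the second batch than in the first, beside 4.8% of all genes, with a median of 0.75. They were 23 of complex I, 3 of complex II, 5 of complex III, 8 of complex IV and 13 of complex V. The smallest p were those of Ndufc2 (0.74 ± 0.18 (adjusted p = 0.00634)), Atp5j2 (1.1 ± 0.27 (adjusted p = 0.0073)) and Ndufb5 (0.98 ± 0.24 (adjusted p = 0.00835)). Without library 860 the count was 10 (beside 114 of 14184 genes higher) and without 861 it was 9 (beside 111 of 14160). Without 860 and 861 it was 0 (beside 0 of 14277 genes), with a median of 0.40. In that last fit 27 members had an unadjusted p under 0.05, beside 1320 genes. Under library totals the count was 27 (beside 288 of 14077 genes higher). In mApple livers 0 of 78 members were called by edgeR, beside 0.0% of all genes, with a median of 0.47. By edgeR 42 members had an unadjusted p under 0.05 there, beside 2069 of 13839 genes. DESeq2 called 3 members there, beside 40 of 13839 genes. Without 864 and 865 the mApple median was 0.26, with 19 members at an unadjusted p under 0.05 (beside 981 of 14022 genes) and 0 called by edgeR. Leaving out 860 and 861 with 864 and 865 also moved the median of ruxolitinib against vehicle, from -0.18 to 0.01 in Myc livers and from 0.05 to 0.15 in mApple livers. The part of the leukocytes and Kupffer cells whose markers were high in 860 and 861 was not tested. Leaving libraries out cannot test it, because 860, 861, 864 and 865 also had the lowest mean levels of the members.

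**Figure D4:**
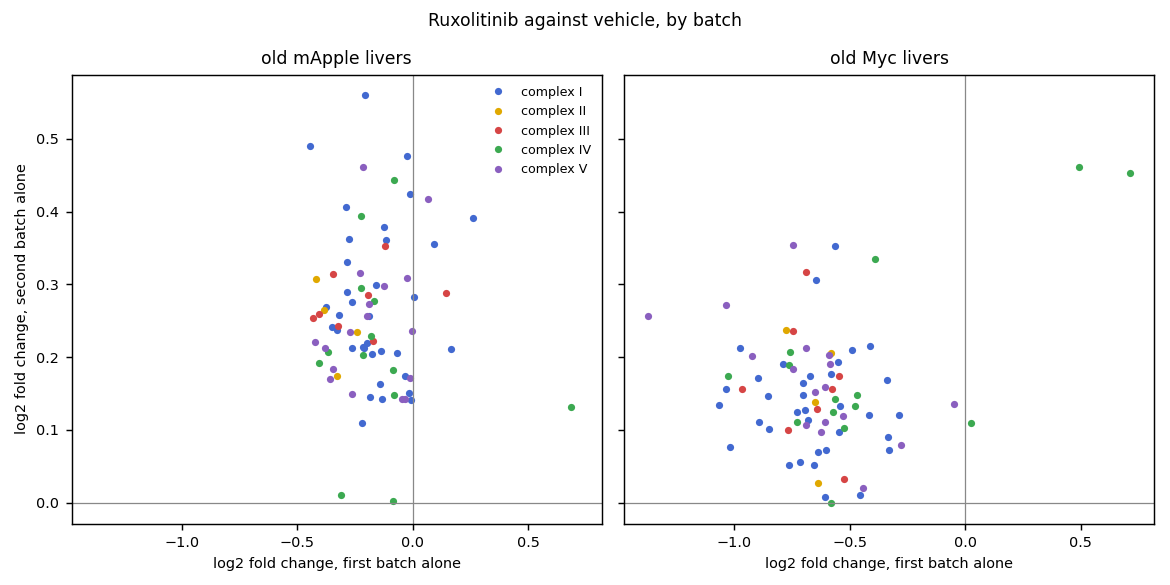
Log2 difference of ruxolitinib against vehicle for each member, first batch against second batch, with mApple and Myc livers in separate panels and a point for each member tested in both. Most points of both panels lie below 0 for the first batch and above 0 for the second, with medians of -0.64 and 0.14 over the members tested with Myc and of -0.20 and 0.24 with mApple.

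Age was compared within the second batch, old at 24 months against young at 4 months. In mApple vehicle livers (4 against 6) 0 of 78 members were called by edgeR, beside 1.1% of all genes. By edgeR 18 members had an unadjusted p under 0.05, beside 2337 of 13155 genes. DESeq2 called 6, all lower in old livers, beside 213 of 13155 genes lower and 436 higher. The median log2 difference was -0.15 over the members and 0.00 over all genes, and 65 of 78 were below 0. Ndufs1 had 113 to 137 (median 132) CPM in young and 85.1, 96.7, 98.7 and 109 in old livers, without overlap, with a log2 difference of -0.39 ± 0.10 (adjusted p = 0.0799). Uqcrc2, the second core protein of complex III, had 231 to 271 (median 250.3) CPM in young and 168, 175, 205 and 223 in old livers, also without overlap (-0.38 ± 0.10 (adjusted p = 0.0942)). Young library 1134 was the lowest of its group for many members, and without it 2 members were called lower in old livers. The members' median was -0.25 without old library 1138. Of the lists of the wider machinery, cytochrome c (Cycs) was the only gene called, at -0.63 ± 0.11 (adjusted p = 0.0228). Among cell type markers, all 3 neutrophil genes tested were higher in the old livers (median 2.26), as were 1 of 6 leukocyte genes (median 1.02), 1 of 3 T cell genes and 1 of 5 B and plasma cell genes. Their part was not tested.

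In Myc ruxolitinib livers (10 old against 10 young) 17 of 77 members were lower in old livers and 4 higher. These are 22.1% and 5.19% of the members, beside 15.6% of all genes lower and 18.1% higher. The median log2 fold change was -0.07 over the members and 0.02 over all genes. By complex 6 of complex I fell and 2 rose, none of complex II passed, 4 of complex III fell, 3 of complex IV fell and 1 rose, and 4 of complex V fell and 1 rose. Ndufs1 had 130.2 to 171 (median 154) CPM in young and 96.9 to 149 (median 123) in old livers, with overlap, and fell by 0.33 on the log2 scale (SE 0.07, adjusted p = 8.99e-04). Uqcrc2 had 255 to 300.1 (median 270.5) CPM against 194 to 274 (median 229.9) (-0.26 ± 0.06 (adjusted p = 0.00184)). Cox5a, a matrix-side subunit of complex IV, had 133 to 164 (median 152) CPM against 109 to 147 (median 127) (-0.22 ± 0.05 (adjusted p = 0.00292)). Ndufa4l2 went the other way, with 0.388 to 1.23 (median 0.665) CPM in young and 0.853 to 1.49 (median 1.18) in old livers (0.64 ± 0.19 (adjusted p = 0.0108)). The old and young values overlapped for each of these genes.

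In complex I, Ndufa1 was also lower (-0.19 ± 0.06 (adjusted p = 0.0169)) and Ndufa7 higher (0.23 ± 0.07 (adjusted p = 0.0177)), and Ndufv1 was lower (-0.21 ± 0.07 (adjusted p = 0.0235)). In complex III, Uqcrc1 fell (-0.19 ± 0.07 (adjusted p = 0.0408)) as did the hinge protein Uqcrh (-0.20 ± 0.07 (adjusted p = 0.0421)), and Uqcrfs1 was not called (-0.13 ± 0.06). In complex IV, Cox6b1 (-0.20 ± 0.06 (adjusted p = 0.0129)) and Cox4i1 (-0.27 ± 0.09 (adjusted p = 0.0306)) were lower. In complex V the catalytic head subunits Atp5b (-0.20 ± 0.06 (adjusted p = 0.0139)) and Atp5a1 (-0.20 ± 0.06 (adjusted p = 0.0189)) and the stalk subunit Atp5c1 (-0.17 ± 0.06 (adjusted p = 0.0312)) were lower, while none of the 3 subunit c genes was called. In complex II, Sdha had -0.15 ± 0.06 (adjusted p = 0.0584) and Sdhb -0.07 ± 0.08. Of the called genes named here, Uqcrc1 lost its call in 11 and Uqcrh in 13 of the 20 omissions of a library, Atp5c1 without 1120, 1150, 1152 or 1156 and Cox4i1 without 1120 or 1150. The count was 13 without library 1150 and 27 at most. The lower calls numbered 9 without 1150 and 10 without 1120 or 1152, and the higher calls 2 without 1121, 1125, 1126, 1127 or 1128. Of 24 genes of mitochondrial gene expression 9 fell and 1 rose, with Tufm, the mitochondrial elongation factor, at -0.35 ± 0.05 (adjusted p = 1.09e-05) and Lrpprc at -0.45 ± 0.07 (adjusted p = 4.78e-05). Of 46 assembly factors 9 fell and 5 rose, and of 17 carriers 4 fell and 2 rose, with Cycs at -0.31 ± 0.06 (adjusted p = 8.19e-04). Of 13 citric acid cycle genes 4 fell, with Cs at -0.28 ± 0.06 (adjusted p = 0.0021). The list counts stand beside 15.6% of all genes lower and 18.1% higher. In the old livers 5 of 7 endothelial markers and 1 of 7 stellate cell markers were lower, and 4 of 10 Kupffer cell, 3 of 6 leukocyte, 3 of 3 B and plasma cell, 2 of 2 neutrophil, 2 of 6 proliferation and 1 of 4 bile duct cell markers tested were higher. Of 12 hepatocyte markers 3 were lower and 2 higher. The part of these cells was not tested.

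Myc with ruxolitinib was set against mApple with vehicle in each age, within the second batch. Vector and drug change together in this contrast, so their effects cannot be told apart. In young livers (10 against 6) 15 of 78 members were higher and 3 lower. These are 19.2% and 3.85%, beside 13.5% of all genes higher and 14% lower. The median was 0.12 over the members and -0.01 over all genes, and without library 1134 it was 0.05 over the members, with 17 called. Without 1129, 5 members were lower. Of complex I 6 rose and 1 fell, of complex III 3 rose and 1 fell, of complex IV 3 rose and 1 fell, of complex V 3 rose, and none of complex II passed. Cox7a2l, a relative of Cox7a2, had 69.5 to 77.3 (median 75) CPM with mApple vehicle and 86.8 to 105 (median 93.0) with Myc ruxolitinib. The groups did not overlap, and the log2 fold change was 0.34 ± 0.05 (adjusted p = 1.07e-04). Uqcr11 had 39.3 to 93.0 (median 89.4) CPM against 110.4 to 141 (median 121), also without overlap (0.61 ± 0.13 (adjusted p = 0.00195)). Ndufa12, an accessory subunit of complex I, had 25.8 to 29.0 (median 26.5) CPM against 30.3 to 37.8 (median 31.5), without overlap (0.29 ± 0.06 (adjusted p = 0.00147)). Ndufa4l2 had 1.0 to 2.09 (median 1.68) CPM against 0.388 to 1.23 (median 0.665), with overlap, and its log2 fold change was -1.07 ± 0.23 (adjusted p = 0.00171).

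Of the further members named by rule in young livers, Ndufs1 rose by 0.24 ± 0.07 (adjusted p = 0.0092) and Uqcrc1 by 0.30 ± 0.07 (adjusted p = 0.00403). Uqcr10, a small subunit of complex III, rose by 0.39 ± 0.10 (adjusted p = 0.0081) and Cox4i1 by 0.33 ± 0.09 (adjusted p = 0.00975). Cox5a rose by 0.20 ± 0.07 (adjusted p = 0.0278). In complex V, Atp5c1 rose by 0.26 ± 0.06 (adjusted p = 0.00288), Atp5g1 by 0.38 ± 0.13 (adjusted p = 0.0305) and Atp5f1, subunit b of the outer stalk, by 0.21 ± 0.08 (adjusted p = 0.0497). Ndufa11 was lower (-0.20 ± 0.06 (adjusted p = 0.0145)). Sdha had a log2 difference of 0.05 ± 0.06 and Sdhb of 0.17 ± 0.07, and neither was called. Of those named, Atp5f1 lost its call in 13 of the 16 omissions of a library, Atp5g1 without 1120, 1122 or 1132 and Cox5a without 1131 or 1132. Library totals, which moved the median of all genes to 0.16, gave 45 members higher and 1 lower, beside 3975 and 757 of 12808 genes. In 1 fit of all 58 libraries 4 members were called, beside 2502 of 14024 genes. Of 46 assembly factors 11 rose and 1 fell, and of 17 carriers 5 rose and 2 fell. Of 24 genes of mitochondrial gene expression 9 rose and 1 fell, with Twnk at 0.71 ± 0.06 (adjusted p = 2.26e-07). Of 13 citric acid cycle genes 8 rose, with Idh3b at 0.44 ± 0.07 (adjusted p = 9.56e-05). The list counts stand beside 13.5% of all genes higher and 14% lower. Hepatocyte markers were lower in 6 of 12 and higher in 1, endothelial markers lower in 1 of 7 and higher in 1, and the 1 T cell marker (Cd4) and 1 plasma cell marker (Jchain) tested were lower. Their part was not tested.

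In old livers (10 against 4) 9 of 79 members were higher and none lower, that is 11.4%, beside 6.52% of all genes higher and 4.35% lower. The median was 0.22 over the members and -0.01 over all genes, and 70 of the 79 were above 0. Ndufb6, a membrane-arm subunit of complex I, had 28.5, 35.5, 36.0 and 36.6 CPM with mApple vehicle and 40.8 to 62.2 (median 53.2) with Myc ruxolitinib, without overlap (0.59 ± 0.10 (adjusted p = 0.00265)). Ndufb2 had 18.9, 19.0, 23.3 and 27.3 CPM against 28.7 to 35.0 (median 32.0), also without overlap (0.50 ± 0.09 (adjusted p = 0.00512)). Uqcr11 had 70.7, 74.0, 76.9 and 92.0 CPM against 90.1 to 139 (median 106), with overlap (0.46 ± 0.11 (adjusted p = 0.0152)). The other called members were Cox7c (0.45 ± 0.11 (adjusted p = 0.0212)), Atp5g3 (0.44 ± 0.11 (adjusted p = 0.0243)), Ndufb10 (0.36 ± 0.10 (adjusted p = 0.0346)), Ndufs3 (0.29 ± 0.08 (adjusted p = 0.0354)), Ndufc1 (0.43 ± 0.13 (adjusted p = 0.0431)) and Atp5g1 (0.28 ± 0.09 (adjusted p = 0.0447)). The calls for Ndufb6, Ndufb2 and Uqcr11 remained in all 14 omissions of a library, Cox7c lost its call without 1135 or 1136 and Atp5g3 without 1135, 1136, 1137 or 1138, and the rest in 5 to 9 omissions. The count ran from 3 (without 1135 or 1136), through 4 (without 1137) and 5 (without 1153), to 17 (without 1150). DESeq2 called 19 (beside 2172 of all 13761 genes), library totals 36 (beside 1839), and 1 fit of all 58 libraries 2 (beside 3349 of 14024). That last fit also takes in the first-batch libraries of both groups, with a batch term. Its members' median was 0.03, with 47 of 79 above 0. Of 46 assembly factors 8 rose and of 17 carriers 5. Of 24 genes of mitochondrial gene expression 8 rose and 1 fell, and of 13 citric acid cycle genes 3 rose. The list counts stand beside 6.52% of all genes higher and 4.35% lower. Endothelial markers were lower in 5 of 7, 1 of 12 hepatocyte markers was lower, and 4 of 6 proliferation markers were higher (median 1.97). Their part was not tested.

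DESeq2 called 0 of 78 members for the difference of this contrast between old and young livers, over the 30 libraries of the 4 groups. The edgeR test of this difference called 0 members, beside 0.287% of all genes, with 7 members at an unadjusted p under 0.05, beside 1914 of 13609 genes. Its smallest p were those of Uqcrb (0.41 ± 0.13 (adjusted p = 0.151)) and Ndufa4l2 (0.93 ± 0.34 (adjusted p = 0.214)). Several of these comparisons share libraries, so that their values stand side by side and are no repeats of each other. Over the 10 comparisons that were planned, 41 of the 84 members were called in at least 1 and 43 in none, of which 5 were tested in none because of low counts. These 5 are Cox4i2, Cox6a2, Cox7b2, Cox8b and Cox8c. The share of all genes called in at least 1 comparison was not computed, so the counts do not set the members apart from other genes. None of the 4 genes of complex II was called in any of the 10.

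**Figure D5:**
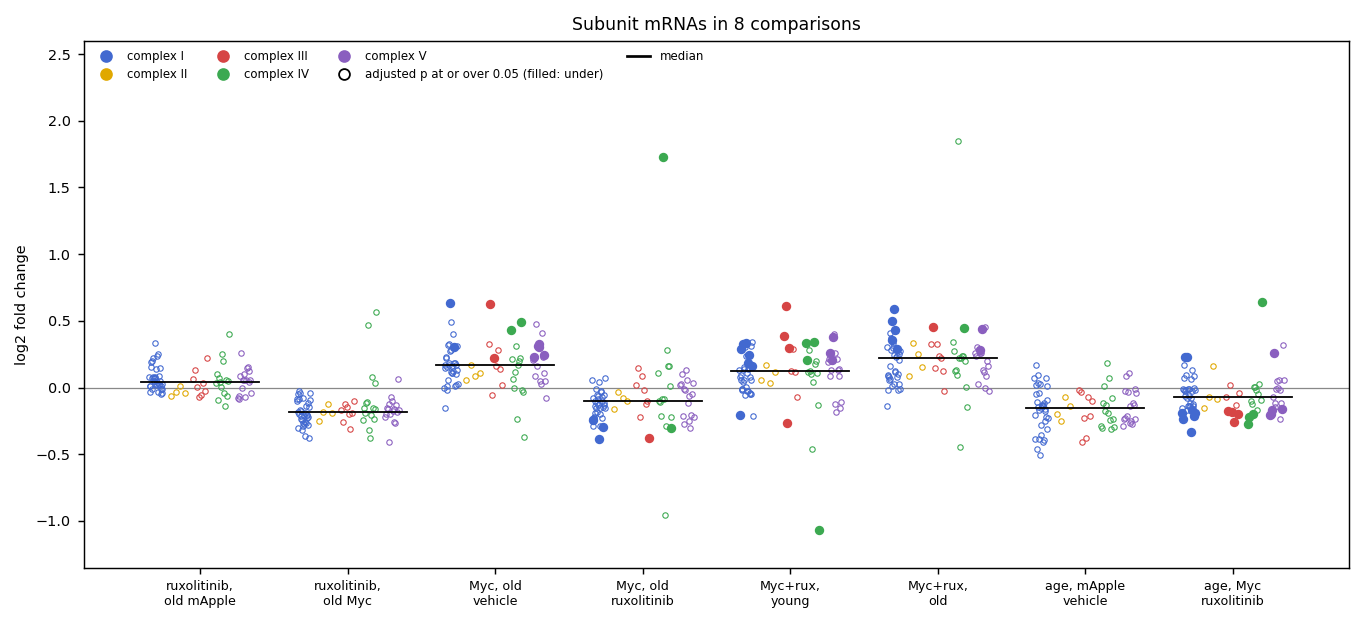
Log2 fold changes of all tested members in the planned comparisons, grouped by complex, with called members filled and a line at the members' median, for 8 comparisons. Points lie mostly above 0 for Myc under vehicle (11 called higher) and for Myc with ruxolitinib in old livers (9 higher), and mostly below 0 for age. The highest filled point is Cox6b2 (1.73, Myc under ruxolitinib).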

How the data were processed

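PolyA RNA of 58 livers was sequenced as paired reads of 75 bases, per the labels. The submitters' processing notes name STAR, HOMER and the build GRCm38 (mm10), with versions not given in the sources used here. The deposited values are expected counts (estimated counts per gene over exons) made by the authors, without a strand setting per the file headers, in steps of 0.5. Of them 29.9% were not whole, and all were rounded to whole counts. Antisense or overlapping genes and near-identical copies can therefore share reads, although no member had more than 1 copy listed.

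Each comparison was fitted with edgeR 4.0.16 quasi-likelihood (R 4.3.3, limma 3.58.1) to its own groups' libraries after TMM scaling, with filterByExpr (minimum count 10) and, for groups spanning both batches, a term for the batch. Tests are two-sided, with p-values adjusted by Benjamini-Hochberg over all genes tested and a threshold of 0.05. The standard error is the absolute log2 fold change divided by the square root of F. CPM are counts-per-million relative to the library total times its TMM factor, and CPM per kb divide by the exon length in the table. No pair of libraries was identical. Of the fits, that of Myc under vehicle in old livers was tested on simulated data made without a batch effect. Libraries held 10676098 to 40982340.5 counts, and the precision of each fold change is its standard error. Alternatives were size factors by RLE, library totals, DESeq2 1.42.0, no filter, leaving the batch out of the model, either batch by itself, 1 fit of all 58 libraries, and leaving out libraries. Promoter windows came from the RefSeq table of GRCm38.p6, and 15 members without a window were not searched. Work outside R used Python 3.11.15, numpy 2.4.6, pandas 2.3.3 and matplotlib 3.10.9.

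Members and gene lists were chosen with earlier results of these data known. Values of a comparison are printed for all called members where these were 12 or fewer, otherwise for the 3 of smallest p in each complex, and for fixed representatives, isoform genes and the most and least abundant members. From each gene list up to 3 members of smallest p were named. Members outside this rule that are named with values (the batch terms) were chosen after their values were seen.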

Additional observations from a re-analysis of the deposited data

Results flagged for a closer look

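Library 1134 (young mApple, vehicle) stood apart from the other 5 of its group. Its mean log2 CPM was 5.95 over all members, 5.44 over complex I, 6.65 over complex III and 6.45 over complex V, and its Uqcr11 level was 39.3 CPM, each the lowest of the group and far below the next. Its hepatocyte markers summed to 230784 CPM, the highest of all libraries. Cox6b2 was highest in library 1129 of the same group, at 0.327 CPM. In 40 such looks at a group, chance gives about 1 in 20 a sample this far out.

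In old Myc livers the effect of ruxolitinib differed between batches for 52 members, by the interaction of drug and batch. The count was 10 without library 860, 9 without 861 and 0 without libraries 860, 861, 864 and 865.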

How the results depend on the processing

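No paired analysis was possible because every library has its own number, and no number is shared between groups.

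Members called for Myc under vehicle numbered 11, and 42 under library totals, 3 without a batch term and 1 in each batch alone. Over all genes the calls were 2544, 3254 and 1468, with 732 in the first batch alone and 629 in the second. For Myc under ruxolitinib the members called numbered 6, and 3 without the filter, 2 without a batch term and 0 in the first batch. Calls over all genes were 2012, 1801, 1033 and 0, in that order. For age in mApple vehicle livers 0 members became 6 with DESeq2, and 145 of all genes became 649. For Myc with ruxolitinib against mApple with vehicle, 18 in young livers became 46 under library totals and 4 in 1 fit of all 58 libraries. In old livers 9 became 36 under library totals, 2 in that fit and 19 with DESeq2. Over all genes 3524 calls in young livers became 4732 and 2502, and 1496 in old livers became 1839, 3349 and 2172. The difference of the drug effect between batches was called for 52 members with Myc and for 27 under library totals, 10 without library 860, 9 without library 861 and 0 without all 4 low libraries. The calls over all genes were 2290, 3168, 945, 977 and 0, in that order. With mApple 0 members became 3 with DESeq2, and 0 of all genes became 40. Except where the fit itself had fewer samples or genes, the cause was not tested. Leaving out 1 library at a time gave 6 to 18 calls for Myc under vehicle, 3 to 12 for Myc under ruxolitinib, 0 to 2 for age in mApple and 13 to 27 in Myc ruxolitinib livers, 15 to 22 and 3 to 17 for Myc with ruxolitinib in young and old livers, and 0 for the 3 comparisons of ruxolitinib and for the difference between ages. No value reversed its sign where it was called. Depth limits Cox4i2, Cox6a2, Cox8b, Cox7b2 and Cox8c, which were too low to test.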
